A study of Rattus norvegicus and Mus musculus with 12 samples.

Results

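The complement genes C3, Cfb, Cfd, C1ra, C1s (C1s1 in mouse), Serping1, Cd55 and Clu were examined in primary articular chondrocytes of rats and mice. The genes were chosen by symbol, 8 in all, of 19687 genes in the rat table and 28603 in the mouse table. All 8 were listed in mouse. In rat 7 were listed, since the rat table holds a gene named C1r and no C1ra, and C1r is described beside them. The RNA-seq data comprised 12 libraries, with 3 in each of the RC (rat control), RM (rat model), MC (mouse control) and MM (mouse model) groups. The cells were passage 1 chondrocytes of newborn animals (rats of the SD strain, mice named as C57BL/6), and the RM and MM groups had received 20 ng/ml IL-1β for 24 h. The strain labels of the mouse libraries run from C57BL/6 to C57BL/9, while the methods name C57BL/6 only. The methods call the libraries of a group independent samples, and neither labels nor methods tie a library to an animal or a litter.

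Complement is a cascade of plasma and tissue proteins that marks surfaces for removal and can form a pore in a membrane. C1r and C1s are the serine proteases of the first component, which opens the classical pathway. C3 is the protein on which all routes converge, and factor B (Cfb) and factor D (Cfd) drive the alternative route that amplifies its cleavage. C1 inhibitor (Serping1) blocks C1r and C1s, CD55 dissolves the enzymes that cleave C3, and clusterin (Clu) is a secreted chaperone that binds the late components. Complement proteins are made by cartilage cells as well as by the liver and are found in joints with osteoarthritis.

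Each library held 16.8 to 25.9 M reads counted on genes. The change in each species was tested on the read counts by edgeR's quasi-likelihood test with TMM scaling, and P values were adjusted over the 13303 rat or 14774 mouse genes that passed a filter on low counts. Levels are given as FPKM, the count per length of gene and per depth of the library, as deposited. The spread between replicates was small, with a biological coefficient of variation of 0.106 in rat and 0.0318 in mouse. The P values measure only the spread between these libraries. The test of the difference between the species used 1 estimate of the spread for both, though it was larger in rat. Its intervals may be too narrow and its P values too small. All 13 chondrocyte markers were present and lower with IL-1β in both species, with a summed FPKM of 5801 to 6478 in RC, 2376 to 2410 in RM, 2598 to 2652 in MC and 250.6 to 264.7 in MM. All 8 genes listed as a check of the IL-1 response were higher in both species. Of these, Il6 passed the filter on low counts only through RM in rat and MM in mouse. Among the chondrocyte markers, mouse Matn3 passed it only through MC. The filter fixed the direction of both, and their place in these counts is no support. Of the fibroblast markers, 1 was higher and 4 were lower in rat, and 3 were higher and 4 lower in mouse. Over all genes tested, 18.3% were higher and 16.8% lower in rat, and 37.4% were higher and 37.7% lower in mouse (adjusted P under 0.05). The endothelial markers were too low for a test in rat, and 1 of them, Tek, was tested and lower in mouse. In such bulk libraries, fewer cells of a type and less RNA per cell cannot be told apart.

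C3, the central component, rose from near the limit of detection in rat and from a low level in mouse. In rat (ENSRNOG00000046834) its FPKM was 0.031, 0.0996 and 0.11 in the RC libraries and 46.9, 45.3 and 44.7 in the RM libraries. The groups lay far apart, and RC replicate 1 was the lowest of the controls. Its log2 fold change was 9.16 (standard error 0.18, edgeR adjusted P = 1.82e-10), a fold of 570.1. It rests on 28 counts summed over RC against 16539 over RM, and without 1 library it ran from 8.72 to 9.43. C3 passed the filter on low counts through the RM group, and its place by mean FPKM moved from 13226 to 1776 among the 13303 genes tested.

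In mouse, C3 (ENSMUSG00000024164, GRCm38 chr17:57203970-57228136, minus strand) had an FPKM of 1.61, 1.41 and 1.26 in the MC libraries and 162, 161 and 158 in the MM libraries. Its change on the log2 scale was 7.09 (standard error 0.049, edgeR adjusted P = 4.74e-75), a fold of 136. Its place by mean FPKM moved from 10933 to 210 of 14774 genes. C3 therefore reached the higher level in mouse and the larger fold in rat. The difference of the changes, mouse minus rat, was -2.06 on the log2 scale (95% interval -2.58 to -1.55, adjusted P = 1.26e-06). That difference turned to 0.62 with limma on log2(FPKM + 1), where changes of low genes are compressed.

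Markers of leukocytes, which also make C3, were examined beside it. In mouse, 4 of the 5 markers with enough counts were higher, and the summed FPKM of the 11 listed markers was 7.87 to 8.82 in MC and 34.8 to 37.4 in MM. Cd14 made up most of that sum in MM, with an FPKM of 24.1 ± 0.73 (SD, n = 3). The defining markers Ptprc, Adgre1 and Aif1 had at most 3 counts each when summed over MC and at most 1 over MM. In rat, 3 of 7 tested markers were higher and 2 were lower, and the sum was 20.7 to 25.3 in RC and 32.8 to 37.7 in RM. There Ptprc had 20 counts in RC and 16 in RM, and Adgre1 had 18 and 23. The part of such cells in the C3 values was not tested.

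The stretch just upstream of the start site is shown for the rat genes C3, C1r and Cd55, which rose with IL-1β. The sequences are the 250 bases before the RefSeq start in GRCr8, a later build than the one named for the counts. Capitals mark a match on either strand to TTNNGNAAT, a C/EBP motif.
C3 (chr9:2201340-2201589, minus strand): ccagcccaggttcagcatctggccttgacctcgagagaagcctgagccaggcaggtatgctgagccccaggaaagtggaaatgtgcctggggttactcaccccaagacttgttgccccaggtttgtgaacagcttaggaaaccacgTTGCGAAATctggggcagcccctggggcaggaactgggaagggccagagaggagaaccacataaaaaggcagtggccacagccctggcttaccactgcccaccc
C1r (chr4:159098763-159099012, plus strand): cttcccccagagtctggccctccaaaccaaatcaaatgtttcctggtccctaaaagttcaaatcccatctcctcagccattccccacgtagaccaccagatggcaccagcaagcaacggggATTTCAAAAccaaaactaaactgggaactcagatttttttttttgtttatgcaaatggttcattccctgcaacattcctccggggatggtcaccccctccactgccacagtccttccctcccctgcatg
Cd55 (chr13:44438102-44438351, minus strand): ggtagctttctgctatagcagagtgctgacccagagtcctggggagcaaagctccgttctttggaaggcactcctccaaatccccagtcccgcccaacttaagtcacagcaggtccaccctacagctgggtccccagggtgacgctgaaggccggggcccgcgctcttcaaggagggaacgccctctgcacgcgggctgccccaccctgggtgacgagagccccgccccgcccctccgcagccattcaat
The C3 match, TTGCGAAAT, lay 104 to 96 bases before the start, and the C1r match, ATTTCAAAA, lay 129 to 121 bases before it on the other strand. In the Cd55 window these letters were not found. A match of this kind was present in 10.9% of the 33469 rat promoter windows searched. The STAT motif TTCNNNGAA and the NF-κB consensus were not found in these 3 windows, and they were present in 7.67% and 6.33% of all windows. Such a match is a description of the letters and not of binding.

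**Figure D1:**
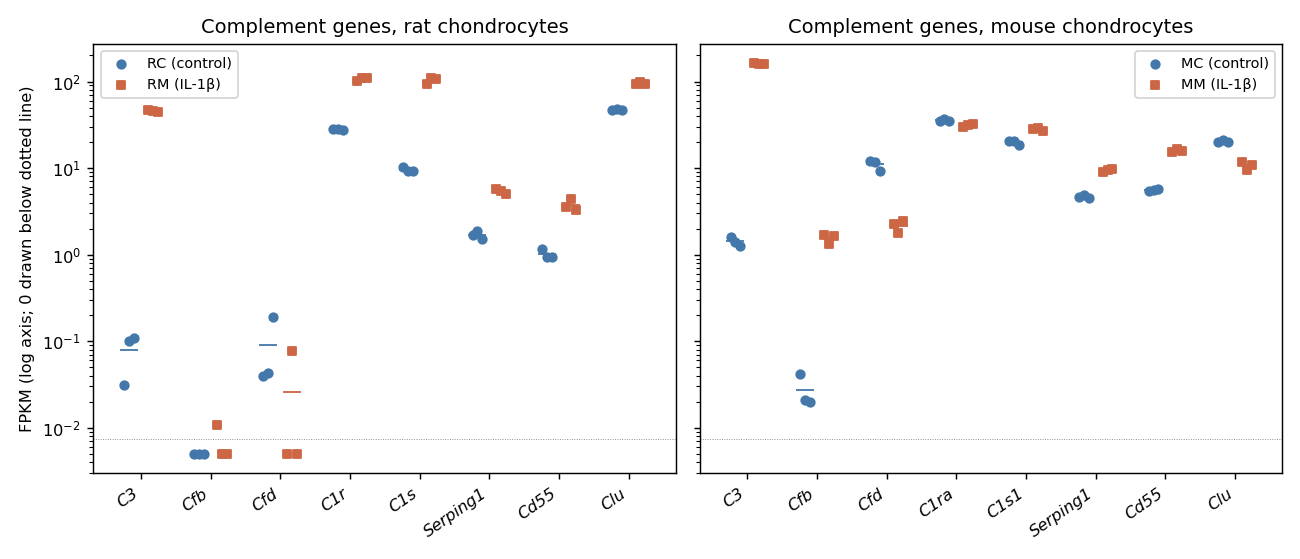
FPKM (log axis) of the complement genes in each rat library (left, RC and RM) and mouse library (right, MC and MM), with points for libraries, short lines for group means (none for rat Cfb) and values of 0 drawn below the dotted line. C3 stands at 44.7 to 46.9 in RM and 158 to 162 in MM, far above its controls, while Clu is higher in RM than in RC and lower in MM than in MC.

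Factor B and factor D of the alternative route were seen in mouse and hardly at all in rat. Cfb in mouse (ENSMUSG00000090231, GRCm38 chr17:34856374-34862518, minus strand) had an FPKM of 0.0414, 0.021 and 0.0197 in MC and 1.68, 1.34 and 1.62 in MM. This gave a log2 fold change of 5.97 (standard error 0.39, edgeR adjusted P = 1.71e-21). It rests on 4 counts in all MC libraries against 249 in MM, and Cfb passed the filter on low counts through the MM group. On the log2(FPKM + 1) scale the change was 1.31. The gene model Gm20547, on the same strand, shares 2246 exon bases (79.5%) with Cfb in GENCODE M21. Gm20547 is not listed in the mouse table, and how reads in shared bases were counted is not stated. In rat, Cfb (ENSRNOG00000000419) had 0 counts in RC and 1 in RM, under the limit of 3 counts that a count of 0 allows, and a change was not detectable at this depth.

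Cfd, the protease also known as adipsin, fell in mouse. Its FPKM (ENSMUSG00000061780, GRCm38 chr10:79890853-79892655, plus strand) was 12.1, 11.8 and 9.36 in MC and 2.27, 1.77 and 2.42 in MM, without overlap of the groups. On the log2 scale the change was -2.08 (standard error 0.17, edgeR adjusted P = 1.33e-17). In rat (ENSRNOG00000033564) 6 counts in RC and 2 in RM were too few for a test. At the control level, Cfd was thus the fourth of the 8 genes in mouse, and in rat its FPKM of 0.0908 ± 0.0853 (SD, n = 3) was close to that of C3.

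Cfd is a product of fat cells, and 6 adipocyte markers were examined beside it. In mouse 4 of them could be tested and 2 were lower, where 37.7% of all mouse genes tested were lower and 37.4% higher. Adipoq, which encodes adiponectin, went from an FPKM of 5.21 ± 0.517 (SD, n = 3) in MC to 0.494 ± 0.121 in MM, a log2 fold change of -3.10 (edgeR adjusted P = 3.11e-19). Adipoq passed the filter on low counts only through the MC group, so its direction was fixed by that filter and is no support. Plin1, which encodes the lipid droplet protein perilipin 1, had a log2 fold change of -2.33 (edgeR adjusted P = 1.43e-13). Lipe, the hormone-sensitive lipase, rose by 1.23 and Fabp4 had a change of 0.09 (edgeR adjusted P = 0.278). Over the 6 markers, 2 were lower, 1 was higher, 1 did not pass and 2 were too low to test, and the summed FPKM was 14.1 to 14.9 in MC and 8.55 to 9.33 in MM. Lep had 1 count in MC and 0 in MM. The part of such cells in the Cfd values was not tested. In rat, Adipoq and Plin1 had 15 and 20 counts in RC and 6 each in RM. Of the 2 markers that could be tested there, Lipe did not pass (edgeR adjusted P = 0.993) and Fabp4 was higher, with a log2 fold change of 3.44 (edgeR adjusted P = 6.24e-07).

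**Figure D2:**
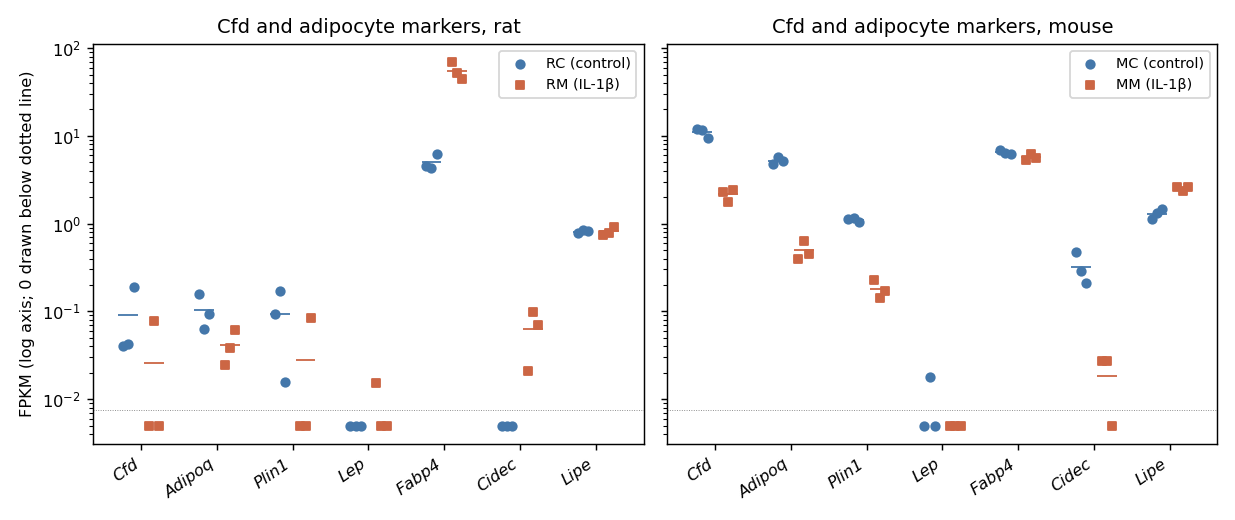
FPKM (log axis) of Cfd and of the 6 adipocyte markers in each rat library (left) and mouse library (right), with points for libraries, short lines for group means and values of 0 below the dotted line. In mouse, Cfd, Adipoq and Plin1 are lower in all 3 MM libraries than in any MC library, as is Cidec, which was too low to test, whereas Lipe is higher. Fabp4 lies close to its controls, with every MM value (5.27 to 6.20) below the MC values (6.23 to 6.91). In the fit with TMM scaling its log2 fold change was 0.09.

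C1s, a protease of the first component, rose in both species and far more in rat. C1s in rat (ENSRNOG00000011971) had an FPKM of 10.4, 9.26 and 9.15 in RC and 92.7, 108.7 and 105.6 in RM. Its log2 fold change was 3.40 (standard error 0.092, edgeR adjusted P = 2.38e-09), and its place by mean FPKM moved from 6255 to 756. In mouse, C1s1 (ENSMUSG00000038521, GRCm38 chr6:124530345-124542359, minus strand) had an FPKM of 20.3, 20.7 and 18.6 in MC and 28.3, 28.9 and 26.5 in MM. All 3 MM values lay above the MC values. The log2 fold change of 0.77 (standard error 0.047, edgeR adjusted P = 3.60e-23) passed the test but not the size of 0.85 asked here of a differentially expressed gene (DEG). The methods give 0.85 as a fold change without naming a scale, and it is read here as log2. The difference between the species was -2.63 (95% interval -2.85 to -2.41, adjusted P = 9.82e-13).

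C1r, its partner, followed in rat. The rat gene C1r (ENSRNOG00000011796) had an FPKM of 28.4, 28.2 and 27.2 in RC and 101.8, 110.4 and 111.1 in RM, a log2 fold change of 1.93 (standard error 0.069, edgeR adjusted P = 2.10e-08). In mouse, C1ra (ENSMUSG00000055172, GRCm38 chr6:124512405-124523443, plus strand) lies 6901 bases from C1s1. Its FPKM was 35.1, 37.2 and 34.7 in MC and 29.8, 31.2 and 32.3 in MM, lower in every MM library. With TMM scaling, whose factors were 1.099 to 1.104 in MC and 0.905 to 0.9105 in MM, the same counts gave 96.7 ± 3.63 CPM (SD, n = 3) in MC and 102.2 ± 3.86 in MM. This is a log2 fold change of 0.08 (95% interval -0.0031 to 0.16, edgeR adjusted P = 0.0764), which passed at 0.0381 without MC replicate 2 and at 0.0209 without MM replicate 1, and with library size alone it was -0.20 (adjusted P = 1.84e-05). The direction of C1ra therefore depends on the scaling. With rat C1r set beside mouse C1ra, a match made after the data were seen, the difference between the species was -1.85 (95% interval -2.01 to -1.69, adjusted P = 1.95e-12).

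The mouse relatives C1rb and C1s2 were near the limit of detection. C1rb had 9 counts in MC and 7 in MM, and C1s2 had 10 and 12. Reads that match such relatives equally make these values uncertain. The antisense gene Gm16567, which is not listed in the mouse table, overlaps 576 exon bases (18.4%) of C1s1. Whether reads were counted by strand is not known.

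Serping1, the inhibitor of C1r and C1s, rose in both species. Serping1 in rat (ENSRNOG00000007457) had an FPKM of 1.68, 1.87 and 1.53 in RC and 5.67, 5.50 and 5.04 in RM, and its log2 fold change was 1.65 (standard error 0.15, edgeR adjusted P = 1.34e-05). In mouse (ENSMUSG00000023224, GRCm38 chr2:84765387-84775444, minus strand) it had an FPKM of 4.60, 4.90 and 4.48 in MC and 8.95, 9.41 and 9.82 in MM. That log2 fold change was 1.29 (standard error 0.09, edgeR adjusted P = 3.42e-20). The groups did not overlap in either species. The change was smaller in mouse by 0.36 (a difference of -0.36, 95% interval -0.68 to -0.05, adjusted P = 0.0415), a call that was lost in 8 of the 12 fits without 1 library (replicates 1 and 3 of RC, and replicates 1 and 2 of RM, MC and MM), with adjusted P from 0.059 to 0.107 there.

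Cd55, the membrane regulator, had nearly the same change in both species. Its FPKM was 1.17, 0.947 and 0.949 in RC and 3.56, 4.34 and 3.29 in RM (ENSRNOG00000003927), a log2 fold change of 1.85 (standard error 0.17, edgeR adjusted P = 1.54e-05). In mouse (ENSMUSG00000026399, GRCm38 chr1:130439027-130462744, minus strand) it was 5.39, 5.56 and 5.74 in MC and 15.1, 16.5 and 15.7 in MM, a log2 fold change of 1.78 (standard error 0.055, edgeR adjusted P = 1.62e-38). The difference between the species was -0.07 (95% interval -0.39 to 0.25, adjusted P = 0.707). Its standard error, from a spread shared by both species, was 0.151, under that of the rat change alone (0.165). The interval may therefore be too narrow, and a difference of 0.39 or more on the log2 scale remains possible. With library size alone the difference was -0.36 (adjusted P = 0.0439). The relative Cd55b had 0 counts in MC and 2 in MM, and the antisense gene Gm16083, which is listed in the mouse table, shares 102 exon bases (2.1%) with Cd55.

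Clusterin went in opposite directions. Clu in rat (ENSRNOG00000016460) had an FPKM of 46.3, 48.2 and 47.0 in RC and 94.2, 97.8 and 92.6 in RM. All 3 RM values were above the RC values, with a log2 fold change of 0.99 (standard error 0.066, edgeR adjusted P = 1.83e-06). In mouse (ENSMUSG00000022037, GRCm38 chr14:65968483-65981547, plus strand) the FPKM was 20.1, 21.1 and 20.2 in MC and 11.8, 9.53 and 10.97 in MM. The MM values were all below the MC values, and the log2 fold change was -0.65 (standard error 0.056, edgeR adjusted P = 3.00e-16). This is under the size of 0.85 for a DEG, which it passed with library size alone (-0.93). The change in mouse was lower by 1.64 than in rat (a difference of -1.64, 95% interval -1.84 to -1.44, adjusted P = 1.31e-10).

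**Figure D3:**
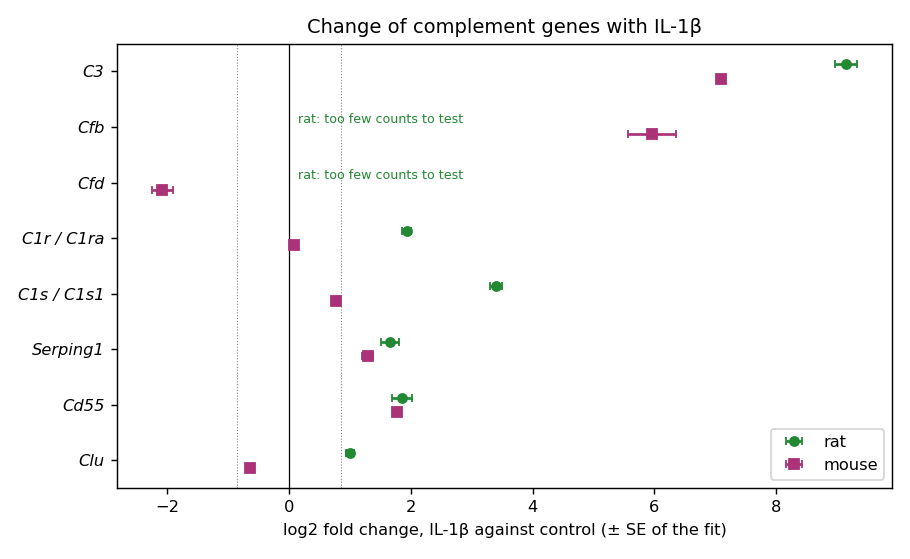
Log2 fold change of the complement genes with IL-1β in rat (circles) and mouse (squares) from edgeR with TMM scaling, with bars for the standard error of the fit and dotted lines at the size of 0.85 used for DEGs. The intervals of Cd55 lie side by side at 1.85 and 1.78, whereas C1s and C1s1 lie at 3.40 and 0.77 and Clu falls on opposite sides of 0.

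Counted over the genes, all 5 of the 7 rat genes that could be tested were higher in RM at an adjusted P under 0.05, as were 18.3% of all rat genes tested (16.8% were lower). The same 5 met the criteria for DEGs (unadjusted P under 0.05, a log2 change of at least 0.85 and an FPKM of at least 1), as did 4.64% of all rat genes in that direction and 3.9% in the other. Their FPKM did not overlap between RC and RM, which held for 25.5% of all rat genes in the higher direction and 22.3% in the lower. In mouse, 5 of 8 were higher and 2 lower at an adjusted P under 0.05, against 37.4% and 37.7% of all mouse genes. By the criteria for DEGs, 4 were upregulated (C3, Cfb, Serping1 and Cd55) and 1, Cfd, was downregulated, against 12.6% and 13% of all mouse genes. The FPKM did not overlap for 5 that were higher and 3 that were lower (Cfd, Clu and C1ra), against 25.4% and 54.9% of all mouse genes. Rat C3 and mouse Cfb could be tested only through the group in which they were high, so their direction was fixed by the filter on low counts and their place in these counts is no support. Without them, 4 rat genes met the criteria upward, and 3 did in mouse. The median log2 fold change over the tested genes, these included, was 1.85 in rat and 1.03 in mouse, and over all genes it was 0.01 and -0.02. Mouse and rat differed in the change (adjusted P under 0.05) for 4 of the 5 genes tested in both, as they did for 63.8% of all such genes.

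The order of the levels was not the same in the control and model groups. In RC, Clu was highest at a mean FPKM of 47.2, ahead of C1r at 27.9 and C1s at 9.59, and Clu made up 77.7% to 79.8% of the summed FPKM of the 7 rat genes, C1r not included. In RM, C1r (101.8 to 111.1) overlapped with C1s (92.7 to 108.7), and C1s with Clu (92.6 to 97.8), followed by C3 at 45.6, Serping1 at 5.40 and Cd55 at 3.73. In MC, C1ra led with 35.7, ahead of Clu and C1s1, whose values overlapped (20.1 to 21.1 and 18.6 to 20.7). In MM, C3 led with 160.1 and made up 61.4% to 62.3% of the sum, against 1.33% to 1.62% in MC. Below it in MM came C1ra, C1s1, Cd55 and then Clu and Serping1, whose values overlapped, with Cfd at 2.16 and Cfb at 1.55 the lowest.

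The ratio of partners was then taken within each library. C1s stood at 0.365, 0.328 and 0.336 of the FPKM of C1r in the RC libraries and at 0.911, 0.984 and 0.951 in the RM libraries. In mouse, C1s1 stood at 0.578, 0.556 and 0.537 of C1ra in MC and at 0.952, 0.927 and 0.82 in MM. The ratio was thus higher with IL-1β in both species, by 1.47 on the log2 scale in rat and 0.69 in mouse. The ratio of Serping1 to its target was lower in RM and higher in MM, going from 0.177 ± 0.0216 (SD, n = 3) to 0.0532 ± 0.00709 of C1s in rat and from 0.235 ± 0.00745 to 0.337 ± 0.0295 of C1s1 in mouse. The ratio of Cd55 to C3 went from 18.6 ± 16.6 to 0.0819 ± 0.0123 in rat, where RC replicate 1 stood apart at 37.7, and from 3.95 ± 0.612 to 0.0985 ± 0.00448 in mouse. The rat ratio rests on 28 counts of C3 summed over RC, of which RC replicate 1 had 4. Rat C3 passed the filter only through RM, so the gap in this ratio restates its rise and is no further support. The ratio of C3 to Cfb in mouse was 39.0, 67.0 and 63.7 in MC and 96.3, 119.9 and 97.6 in MM, resting on the 4 counts of Cfb in MC. In each of these 7 comparisons the groups did not overlap, and the exact two-sided permutation test gave P = 0.1, the smallest that 3 libraries against 3 allow.

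**Figure D4:**
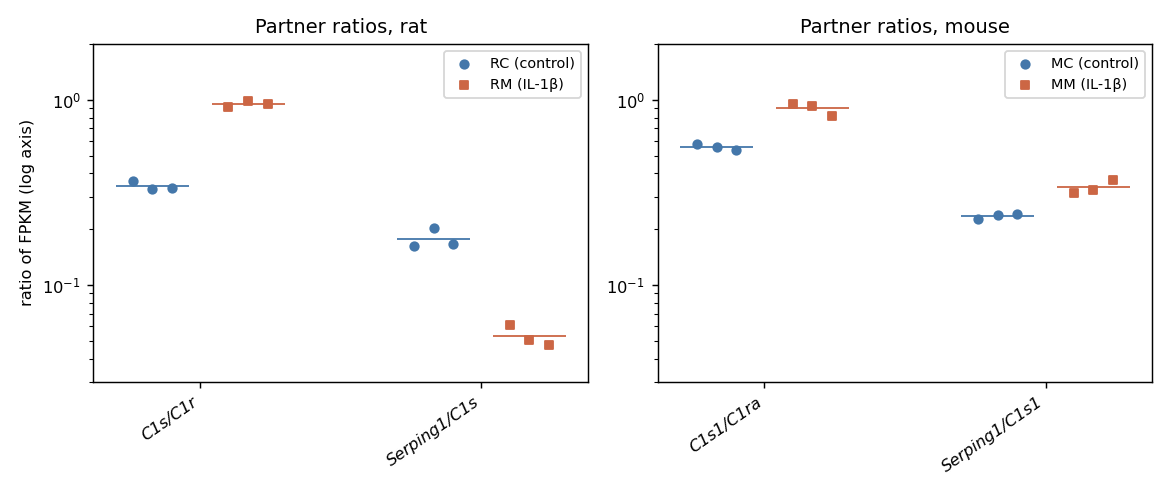
Ratio of FPKM (log axis) of C1s to C1r and of Serping1 to C1s in each rat library (left), and of C1s1 to C1ra and of Serping1 to C1s1 in each mouse library (right), with points for libraries and lines for group means. The first ratio is higher with IL-1β in both species, and the second is lower in RM and higher in MM than in the controls.

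Of 52 other complement genes listed, 43 were in the rat table and 42 in the mouse table, and 17 could be tested in each. In rat, 3 were higher and 3 lower at an adjusted P under 0.05, and in mouse 6 were higher and 5 lower. These shares are close to those over all genes tested (18.3% higher and 16.8% lower for rat, 37.4% higher and 37.7% lower for mouse). By the criteria for DEGs, 2 were up (C1r and C1rl) and 1 down (Masp1) in rat, and 4 were up (C4b, Masp1, Fcna and Itgb2) and 2 down (C1rl and Cd59a) in mouse, where 4.64% and 3.9% of all rat genes and 12.6% and 13% of all mouse genes met them. Their median log2 fold change was 0.11 in rat and -0.07 in mouse. In mouse, Fcna and Itgb2 could be tested only through MM, where they were high, so the filter on low counts fixed their direction. Their place in these counts is no support. Others past the adjusted P, such as Csmd1 and rat C9, were also tested only through the group where they were higher.

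Masp1, a protease of the lectin pathway, fell in rat from an FPKM of 12.02 ± 0.807 (SD, n = 3) to 6.15 ± 0.516 (log2 fold change -0.98, edgeR adjusted P = 2.34e-05). In mouse it rose from 10.6 ± 0.839 to 30.4 ± 0.142 (1.80, edgeR adjusted P = 1.40e-47), a difference of 2.79 between the species (95% interval 2.57 to 3.01, adjusted P = 4.94e-13). C1rl, a relative of C1r, had an FPKM of 2.13 ± 0.176 in RC and 4.43 ± 0.616 in RM, and of 11.6 ± 0.552 in MC and 3.05 ± 0.232 in MM. Its log2 fold changes were 1.04 (edgeR adjusted P = 0.000391) and -1.65 (edgeR adjusted P = 1.54e-26), a difference of -2.69 (adjusted P = 2.13e-10). C4b, the substrate of C1s, rose in mouse from 18.5 ± 0.0546 to 46.8 ± 1.47, a log2 fold change of 1.62 (edgeR adjusted P = 1.16e-46). In rat it had 18 counts in RC and 7 in RM. C4a and C4b are near-identical copies in both tables, so their counts are uncertain. C2, the other substrate, had an FPKM under 1 in every library and did not pass the test in either species.

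Among the regulators and receptors, Cd59a, which blocks the pore, fell in mouse from an FPKM of 10.4 ± 0.481 (SD, n = 3) to 3.45 ± 0.373 (log2 fold change -1.31, edgeR adjusted P = 3.88e-17). Cd59 in rat had a log2 fold change of 0.05 (95% interval -0.22 to 0.31, edgeR adjusted P = 0.793). For Cr1l, a membrane regulator of rodents, the changes of 0.14 (rat) and 0.06 (mouse) did not pass the test (edgeR adjusted P = 0.193 and 0.32). Its FPKM in mouse, which is not scaled by TMM, was lower in every MM library (4.92 to 5.29) than in MC (5.63 to 6.09). Itgb2, the shared chain of the receptors for cleaved C3, rose to an FPKM of 1.53 ± 0.239 in MM from 0.221 ± 0.138 in MC (3.06, edgeR adjusted P = 5.46e-16), while its partner Itgam had 0 counts in each mouse library. Itgb2 was also higher in rat, at an FPKM of 0.214 ± 0.0292 in RC and 0.406 ± 0.0802 in RM (0.91, edgeR adjusted P = 0.0362). Fcna, a ficolin, rose by 2.34 in mouse (edgeR adjusted P = 1.86e-08), from only 24 counts in MC. Both Itgb2 and Fcna passed the filter on low counts in mouse only through the MM group. The late components C5 to C9 were largely at the limit of detection, with 2 of 7 testable in rat and 1 of 6 in mouse. C9 was lower in rat (log2 fold change -1.62, edgeR adjusted P = 0.00832) and C8g was lower in mouse (-0.80, edgeR adjusted P = 0.00631), at FPKM values under 2. Rat C9 passed the filter only through the RC group.

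**Figure D5:**
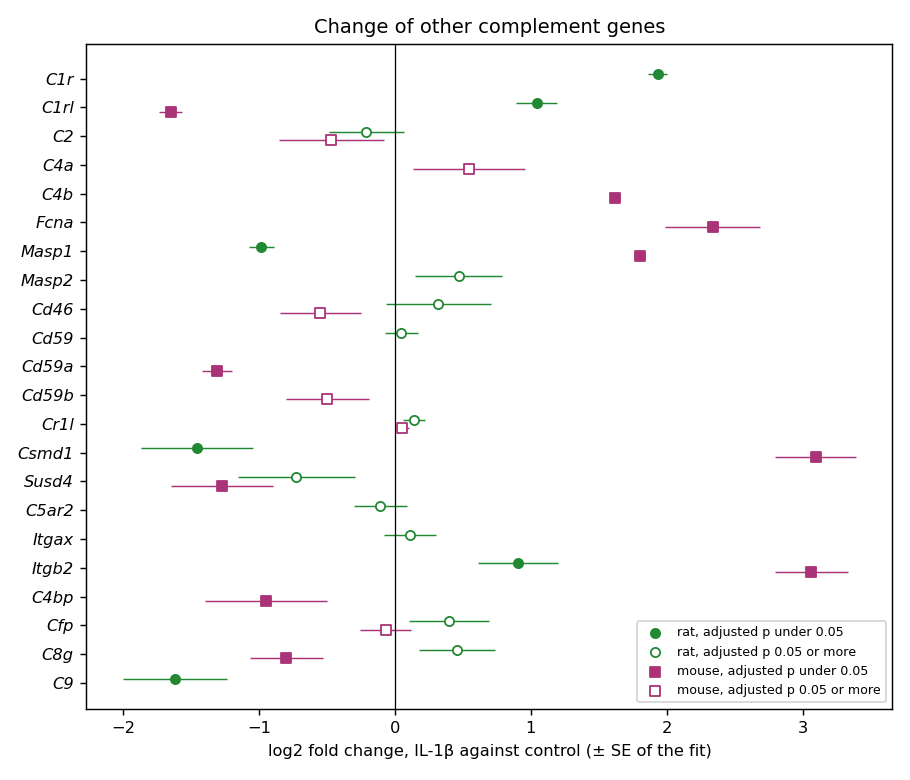
Log2 fold change with IL-1β of other complement genes tested in rat (circles) or mouse (squares), with bars for the standard error of the fit and filled points for an adjusted P under 0.05. Of the genes with filled points in both species, Masp1, C1rl and Csmd1 lie on opposite sides of 0 in rat and mouse. Csmd1 has an FPKM under 1 in every library. It passed the filter on low counts only through RC in rat and MM in mouse, so its directions were fixed by that filter.

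The genes with the pattern most like that of C3 and of Clu were sought among 10913 genes tested in both species. Likeness was the root mean square difference in log2 CPM over the 12 libraries, centred within each species, with a prior count of 2 that sets the values of the lowest genes. Nearest to C3 were the chemokine gene Ccl20 (0.499), Tnip3 (1.07) and the chemokine gene Cxcl3 (1.18), each with a log2 fold change over 8 in both species. Nearest to Clu were Csf1 (0.0831), Stil (0.0947) and Aurka (0.108), each with a positive log2 fold change in rat and a negative one in mouse. For Cfb no such search was made, since it could not be tested in rat. Pairs were also compared among the 5 chosen genes tested in both species (C3, C1s, Serping1, Cd55 and Clu). Of these, Serping1 and Cd55 were the most alike, with a difference of 0.226, and C3 and Clu the least, with 3.95.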

How the data were processed

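The 12 RNA-seq libraries were assigned to groups by their titles. The authors deposited raw read counts per Ensembl gene and FPKM values for each library, and the submitters' processing notes name HISAT2, HTSeq 0.11.2, GRCm38 and Rnor_6.0. No source used here gives the annotation release, the counting mode or the use of strand. The test was edgeR 4.0.16 in R 4.3.3 (filterByExpr, TMM, glmQLFit and glmQLFTest), run on the counts of each species separately, with Benjamini-Hochberg adjustment over all genes tested. Standard errors and 95% intervals come from the fit. To compare the species, 1 fit of 4 groups was made over 10913 genes shared by symbol, with C1s matched to C1s1 and scaling set within each species. The 4 groups shared 1 estimate of the spread in that fit. FPKM are scaled by library size and not by TMM. The members and lists were chosen with earlier results of these data known. Other complement genes were named by rule, up to 6 per species, as those of largest change among genes past an adjusted P of 0.05 whose mean FPKM reached 1 in either group. Further ones were named after their values were seen. The fits were tested on simulated data. DESeq2 1.42.0, limma 3.58.1 and other settings served as alternatives. Mouse coordinates are those of GENCODE M21, matched by identifier. Upstream sequences of rat genes are from RefSeq (GRCr8), which held 3 of the 8 genes (C3, Cfd and Cd55) and C1r. The limit of 3 counts covers counting error only. Some genes on the lists are not reported here by name, though the counts over the lists include them.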

Additional observations from a re-analysis of the deposited data

Results flagged for a closer look

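The change with IL-1β differed between rat and mouse, by the test of the difference itself, for several complement genes. The values are the log2 change in mouse minus that in rat. For the members they were -2.06 for C3, -2.63 for C1s and C1s1, -1.64 for Clu and -0.36 for Serping1 (adjusted P = 0.0415 for the last). The value for C3 turned to 0.62 with limma on log2(FPKM + 1). The call for Serping1 was lost with the replicate block (adjusted P = 0.0576), with DESeq2 (0.0835), with no filter on low counts (0.0656) and in 8 of the 12 fits without 1 library. For rat C1r set beside mouse C1ra the value was -1.85, and this match was made after the data were seen. For the other complement genes it was 2.79 for Masp1, -2.69 for C1rl and 2.15 for Itgb2. In mouse, Itgb2 passed the filter on low counts only through the MM group. The background is high, since 63.8% of the genes tested in both species had such a difference.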

How the results depend on the processing

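The count of upregulated genes was 4 in mouse under every alternative run, and in rat it was 5 except at a size of at least 1, which left 4 because Clu lies at 0.99. The downregulated genes in mouse were 2 in place of 1 with library size alone, with limma on log2(FPKM + 1) and with limma on log2(FPKM + 0.1), because Clu then passed the size of 0.85 (-0.93, -0.87 and -0.93). In these fits C1ra in mouse changed sign (-0.20, -0.19 and -0.20). Of the other complement genes in rat, limma on log2(FPKM + 1) called 1 up in place of 2, and a size of at least 1 left 0 down in place of 1. In mouse, 3 of the other complement genes were down in place of 2 with library size alone, with limma on log2(FPKM + 0.1) and without MC replicate 2. The difference between the species changed sign for C3 (0.62) and Cd55 (0.13) with limma on log2(FPKM + 1). Without 1 library, the difference of Cd55 ran from -0.17 to 0.063 (without RM replicate 2), that of Serping1 from -0.43 to -0.30 and that of C3 from -2.34 to -1.63, and 3 to 4 genes differed. Serping1 also lost its call with DESeq2 (adjusted P = 0.0835) and with no filter on low counts (adjusted P = 0.0656). Replicate numbers recur in each group, and whether they pair the libraries is not stated. The correlations of the deviations between equal numbers were 0.024, -0.098 and 0.085 in rat and 0.001 to 0.015 in mouse. In rat the highest correlation of all pairs (0.162) was between different numbers, and in mouse the highest was 0.015, the value of replicate 2. With 3 libraries per group, such values cannot settle whether the libraries were paired. With the replicate block the calls in each species stayed as they were, and the difference of Serping1 was -0.37 (adjusted P = 0.0576). The alternatives of size and P of the call could not be applied to the difference between the species.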
